A study of Homo sapiens with 30 samples.

Results

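The interleukin 1 system was followed in SW1783 cells, a human astrocytoma line, through 10 genes of the 60675 in the deposited table. The genes were the ligands IL1B, IL1A and IL33, the receptor antagonist IL1RN, the receptor chains IL1R1 and IL1RAP, the signal genes MYD88, IRAK1 and IRAK2, and the protease CASP1. IL1B was selected on its measured level, which differed between 500 and 20 µg/mL of Palmul-tang and Sibjeondaebo-tang, and the others were chosen by their place in the same pathway, with these levels known. Of the 10 genes, 9 had enough counts to be among the 17839 genes tested. IL1RN was too low to measure: it had 10 counts in all, with 20 libraries at 0 and 10 libraries at 1 count, where 3 counts in a library would be 0.079 to 0.137 CPM.

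Interleukin 1 alpha and beta are inflammatory cytokines that bind a receptor made of IL1R1 and the accessory chain IL1RAP. The bound receptor gathers MYD88 and the IRAK kinases, and the signal ends in NF-kappa B and AP-1, which raise cytokines, chemokines and the interleukin 1 genes themselves. Interleukin 1 beta is made as an inactive precursor that caspase 1 cuts, and in brain tissue astrocytes are known to respond to it.

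The cells had been exposed for 24 h to herbal extracts of traditional Korean medicine or to their vehicle, 0.1% DMSO in the sample labels; the series' design text gives another share, and which is right was not settled here. Doses were 500, 100 and 20 µg/mL. Palmul-tang and Sibjeondaebo-tang, both extracted in water, were sequenced in triplicate at every dose, as was the vehicle (3 libraries per group). Samul-tang (water) and 2 ethanol extracts, Poria Cocos and Atractylodis Rhizoma, gave 1 library per dose, which makes 30 libraries in 16 groups. No genotype or allele is given beyond the line, all groups are of that line, and the DMSO share of the treated cells is not given in the labels. The labels do not tell whether replicate libraries are separate cultures, and the p-values reflect only how far these libraries lie apart, which may be technical. Library codes of the vehicle form a set that no treated library shares, so in each comparison with vehicle the treatment and whatever that code set stands for cannot be told apart. The treated libraries fall into 3 further code sets. Samul-tang has its own, both large formulas share another, and Poria and Atractylodis share the last. Where levels are set side by side across these sets, extract and code set cannot be told apart either. Total counts were 22.57 M to 37.82 M. Of 9 astrocyte markers 5 passed the filter, led by VIM with a median of 4970 CPM, while GFAP, S100B, AQP4 and ALDH1L1 were too low to test. Of 9 macrophage and microglia markers 4 passed. Their list summed to 140 to 196 CPM, most of it CD68 at 127 to 185 CPM, with PTPRC at 8.07 to 12.6, CSF1R at 1.75 to 3.34 and CD14 at 0.0828 to 0.593, while TYROBP had 0 counts in all libraries and AIF1, SPI1 and CX3CR1 had at most 3 counts in any. Replicate 3 of Sibjeondaebo-tang at 500 µg/mL stood apart from its group, with a chi-square per gene of 8.14 and 7.42 against the other libraries and 2.64 between those. Many, though not all, of the values between doses or formulas that rest on it are also given without it. The libraries of Sibjeondaebo-tang at 100 µg/mL also lay apart, with a chi-square per gene of 6.68 between replicates 1 and 2, 4.16 between 1 and 3 and 3.76 between 2 and 3.

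Promoters are shown for both interleukin 1 ligands and for IRAK2, which were all higher at 500 than at 20 µg/mL of both large formulas, and for IRAK1, which was not and has the 1 window with an NF-kappa B match. Each is 250 bases before to 50 after the gene's start in RefSeq on GRCh38.p14, 5′ to 3′ on the gene's strand. Of the 10 genes 9 had an entry, all but CASP1. The motifs searched were the NF-kappa B site on both strands, the AP-1 site TGANTCA on both strands and the TATA box TATAAA on the gene's strand. Capitals mark a match, and no matches overlapped.
IL1B: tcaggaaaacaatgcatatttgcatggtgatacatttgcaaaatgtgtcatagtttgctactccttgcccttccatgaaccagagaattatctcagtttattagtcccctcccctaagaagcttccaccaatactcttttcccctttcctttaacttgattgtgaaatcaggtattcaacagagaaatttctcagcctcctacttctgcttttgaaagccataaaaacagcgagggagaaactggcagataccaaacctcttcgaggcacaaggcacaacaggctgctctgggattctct
IL1A: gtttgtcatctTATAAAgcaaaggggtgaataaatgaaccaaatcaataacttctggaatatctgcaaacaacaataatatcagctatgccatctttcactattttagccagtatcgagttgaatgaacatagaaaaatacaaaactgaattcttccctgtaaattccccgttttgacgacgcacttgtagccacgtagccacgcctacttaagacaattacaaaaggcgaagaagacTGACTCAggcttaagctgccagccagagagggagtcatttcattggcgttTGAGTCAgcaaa
IRAK2: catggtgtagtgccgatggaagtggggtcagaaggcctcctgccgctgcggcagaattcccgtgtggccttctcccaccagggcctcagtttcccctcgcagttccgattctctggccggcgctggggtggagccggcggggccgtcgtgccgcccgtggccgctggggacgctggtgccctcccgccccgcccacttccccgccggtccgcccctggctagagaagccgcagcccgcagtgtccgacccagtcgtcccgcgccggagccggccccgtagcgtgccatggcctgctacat
IRAK1: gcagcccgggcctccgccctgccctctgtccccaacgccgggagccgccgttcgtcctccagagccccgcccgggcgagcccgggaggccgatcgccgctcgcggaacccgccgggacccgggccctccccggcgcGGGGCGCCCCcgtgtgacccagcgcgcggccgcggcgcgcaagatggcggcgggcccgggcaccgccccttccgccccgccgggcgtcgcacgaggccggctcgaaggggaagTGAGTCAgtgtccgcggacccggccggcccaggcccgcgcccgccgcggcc
These windows lie at chr2:112836730-112837029 for IL1B (minus strand), chr2:112784444-112784743 for IL1A (minus strand), chr3:10164669-10164968 for IRAK2 (plus strand) and chrX:154019853-154020152 for IRAK1 (minus strand). The IL1B and IRAK2 windows held no match. The IL1A window held 2 AP-1 matches, which begin at bases -12 and 38 from the start, and a TATA box at -239. The IRAK1 window held an NF-kappa B match at -114 and an AP-1 match at -1. Of the other windows, that of IL1RN held 1 AP-1 match and those of IL33, IL1R1, IL1RAP and MYD88 held none. IL1A, IL33, IL1RN and IL1R1 had several entries, and only that nearest the gene's start in GENCODE was searched. The start of that entry lay 10757 bases away for IL1RN and 40060 for IL1R1, so other starts of these genes were not covered. Among 35116 promoters of this length 11.3% held an NF-kappa B match, 7.71% an AP-1 match and 7.33% a TATA box, and a match is only a stretch of letters.

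In vehicle the signal chain was carried at higher levels than the ligands. Per kilobase of exon, IRAK1, a kinase bound to the receptor's adaptor, stood at 95.7 CPM per kb, MYD88, that adaptor, at 12.1, IL1RAP at 7.75, IL1R1 at 6.38 and IRAK2, a second kinase of the chain, at 6.34. The ligands were lower, with IL33, the nuclear cytokine that signals through IL1RL1 and IL1RAP, at 3.25 CPM per kb, IL1B at 1.43 and IL1A at 0.479. CASP1 stood at 1.31 CPM per kb. IL1A was the lowest gene that passed the filter, and its log2 fold changes have the largest SE of the 9 in every comparison made here.

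IL1B was highest at 500 µg/mL of both large formulas and lowest with Atractylodis at 20 µg/mL and in vehicle. The gene (ENSG00000125538) lies on chromosome 2 at 112829751 to 112836903 of GRCh38, on the minus strand. Its CPM in the vehicle libraries were 4.85, 3.88 and 4.6. With Palmul-tang they were 5.34, 5.17 and 5.14 at 20 µg/mL, 7.28, 6.95 and 8.2 at 100 and 11.9, 13.1 and 14.6 at 500. With Sibjeondaebo-tang they were 4.45, 5.04 and 5.64 at 20 µg/mL, 7.33, 6.08 and 7.72 at 100 and 12.9, 14.0 and 14.9 at 500. In either formula the 3 dose groups did not overlap, and every library at 500 was above all libraries at 100. Because these comparisons of dose chose the gene, the values of all 10 genes in them are described without a test. From 20 to 500 µg/mL the log2 fold change was 1.34 ± 0.101 (SE) for Palmul-tang and 1.47 ± 0.099 for Sibjeondaebo-tang, or 1.41 without replicate 3. From 20 to 100 it was 0.51 and 0.47, a smaller part of the distance.

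**Figure D1:**
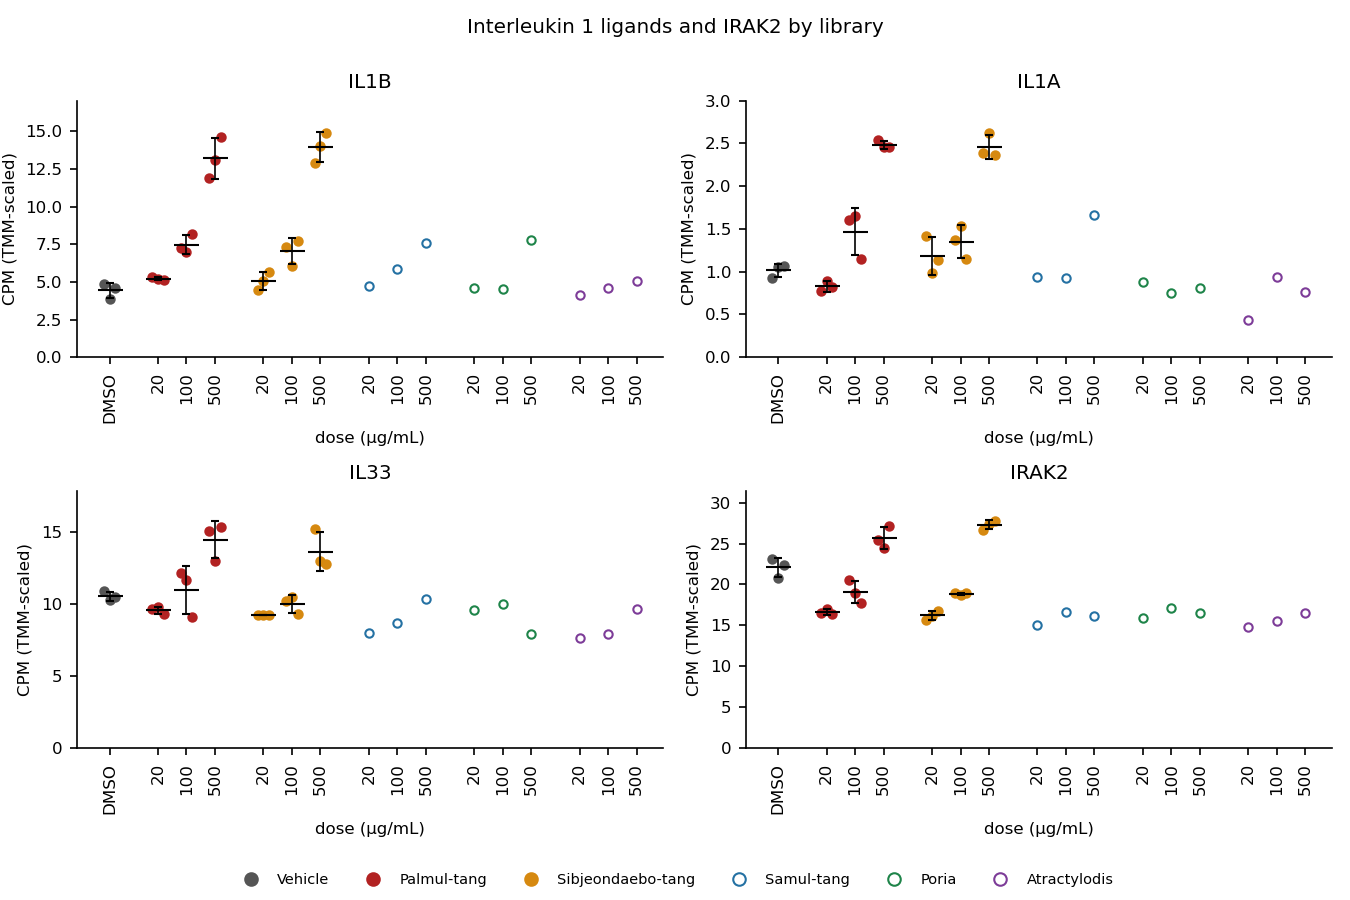
CPM scaled by TMM (vertical axes) of IL1B, IL1A, IL33 and IRAK2 in each of 30 libraries, by extract and dose in µg/mL (horizontal axes). Filled points are libraries of groups with 3, with the mean and SD as black bars, and open points are the single libraries of Samul-tang, Poria and Atractylodis. IL1B at 500 µg/mL of Palmul-tang and Sibjeondaebo-tang sits between 11.9 and 14.9 CPM, above all other libraries, and IRAK2 at 20 µg/mL lies below vehicle.

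Over the 16 groups the order of mean IL1B levels had Sibjeondaebo-tang 500 (13.9 ± 1.03 CPM, SD, n = 3) and Palmul-tang 500 (13.2 ± 1.38) at the top, and the ranges of these groups overlapped. A clear step below them came Poria 500 with 7.79 CPM, Samul-tang 500 with 7.57, Palmul-tang 100 with 7.48 ± 0.648 and Sibjeondaebo-tang 100 with 7.05 ± 0.855. The Poria and Samul-tang libraries lay within the range of Palmul-tang 100, whose range overlapped that of Sibjeondaebo-tang 100. Samul-tang 100 followed with 5.86 CPM. The remaining 9 groups, among them vehicle with 4.44 ± 0.502, had means of 4.11 to 5.22 CPM, no more apart than the libraries within vehicle and Sibjeondaebo-tang 20 together. In bulk RNA, more cells with the transcript and more transcript per cell cannot be told apart.

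IL1A, the other ligand of the receptor, was low in all libraries and highest at 500 µg/mL of both formulas. It lies (ENSG00000115008) on chromosome 2 at 112773915 to 112784590, minus strand, beside IL1B. Counts of 11 to 78 stand behind its values. Vehicle libraries had 0.932, 1.05 and 1.07 CPM. Palmul-tang had 0.773, 0.892 and 0.82 CPM at 20 µg/mL, 1.61, 1.65 and 1.15 at 100 and 2.54, 2.46 and 2.46 at 500. Sibjeondaebo-tang had 1.42, 0.986 and 1.14 CPM at 20 µg/mL, 1.37, 1.53 and 1.15 at 100 and 2.39, 2.62 and 2.37 at 500. All 6 libraries at 500 exceeded every other library, while the 20 and 100 µg/mL libraries of Sibjeondaebo-tang overlapped. The log2 fold change from 20 to 500 was 1.58 ± 0.186 (SE) for Palmul-tang and 1.05 ± 0.171 for Sibjeondaebo-tang.

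IL33 and IRAK2 had smaller differences between doses. IL33 (ENSG00000137033, chromosome 9, 6215786 to 6257983, plus strand) had 10.9, 10.3 and 10.5 CPM in vehicle. With Palmul-tang it had 9.7, 9.78 and 9.32 CPM at 20 µg/mL, 12.2, 11.7 and 9.09 at 100 and 15.1, 13.0 and 15.4 at 500. With Sibjeondaebo-tang it had 9.27, 9.23 and 9.26 CPM at 20 µg/mL, 10.2, 10.5 and 9.32 at 100 and 15.2, 13.0 and 12.8 at 500. At 500 all libraries of both formulas were above those of vehicle, and at 20 all were below. The log2 fold change from 20 to 500 was 0.60 ± 0.087 (SE) and 0.56 ± 0.086, in the same order.

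IRAK2 (ENSG00000134070, chromosome 3, 10164865 to 10243743, plus strand), the kinase that sustains the signal, had 23.1, 20.8 and 22.4 CPM in vehicle. With Palmul-tang it had 16.5, 17.0 and 16.4 CPM at 20 µg/mL, 20.5, 18.9 and 17.8 at 100 and 25.4, 24.5 and 27.2 at 500. With Sibjeondaebo-tang it had 15.7, 16.2 and 16.8 CPM at 20 µg/mL, 18.9, 18.7 and 19.0 at 100 and 26.7, 27.4 and 27.8 at 500. So IRAK2 stood below vehicle at 20 and 100 µg/mL and above it at 500, with no overlap. Its log2 fold change from 20 to 500 was 0.63 ± 0.059 (SE) for Palmul-tang and 0.75 ± 0.058 for Sibjeondaebo-tang. Against vehicle it was -0.41 and -0.45 at 20 µg/mL, and 0.22 and 0.30 at 500. Without replicate 3 of Sibjeondaebo-tang 500, the change from 20 to 500 was 0.73 for IRAK2, 0.61 for IL33 and 1.07 for IL1A, and IRAK2 stood at 0.29 against vehicle.

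The receptor chains, MYD88, IRAK1 and CASP1 differed less. IL1R1 (ENSG00000115594, chromosome 2, 102064544 to 102179874, plus strand), the signalling receptor, ran from 42.8 to 47.6 CPM in vehicle, from 50.6 to 51.7 at 500 µg/mL of Palmul-tang and from 51.2 to 55.2 at 500 µg/mL of Sibjeondaebo-tang. Its log2 fold change from 20 to 500 was 0.16 in each formula, and 0.20 for Sibjeondaebo-tang without replicate 3. IL1RAP (ENSG00000196083, chromosome 3, 190514051 to 190659750, plus strand) stayed within 76.9 to 90.7 CPM in all 30 libraries, with vehicle at 89.0, 88.9 and 90.7. MYD88 (ENSG00000172936, chromosome 3, 38138478 to 38143022, plus strand) stayed within 45.2 to 52.8 CPM. These ranges are narrow beside those of the ligands.

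IRAK1 (ENSG00000184216, chromosome X, 154010500 to 154019980, minus strand) had 367, 389 and 392 CPM in vehicle and 306 to 392 over all libraries. At 500 µg/mL of Sibjeondaebo-tang its libraries had 322, 328 and 382 CPM, the highest being the replicate that stood apart, and its log2 fold change from 20 to 500 was -0.04, or -0.13 without that replicate. CASP1 (ENSG00000137752, chromosome 11, 105025443 to 105035250, minus strand) had 5.18, 4.2 and 5.17 CPM in vehicle, 6.25, 7.23 and 6.39 at 500 µg/mL of Palmul-tang and 7.29, 7.13 and 5.71 at 500 µg/mL of Sibjeondaebo-tang. Its values are uncertain: CARD16 (1.97 to 3.06 CPM), a neighbouring gene known to resemble a stretch of CASP1, could share reads with it, which was not tested. Exons of IL1R1 overlap an antisense gene and those of IL1RAP a lincRNA, both at 0 CPM in all libraries, and those of IRAK1 the microRNA gene MIR718.

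**Figure D2:**
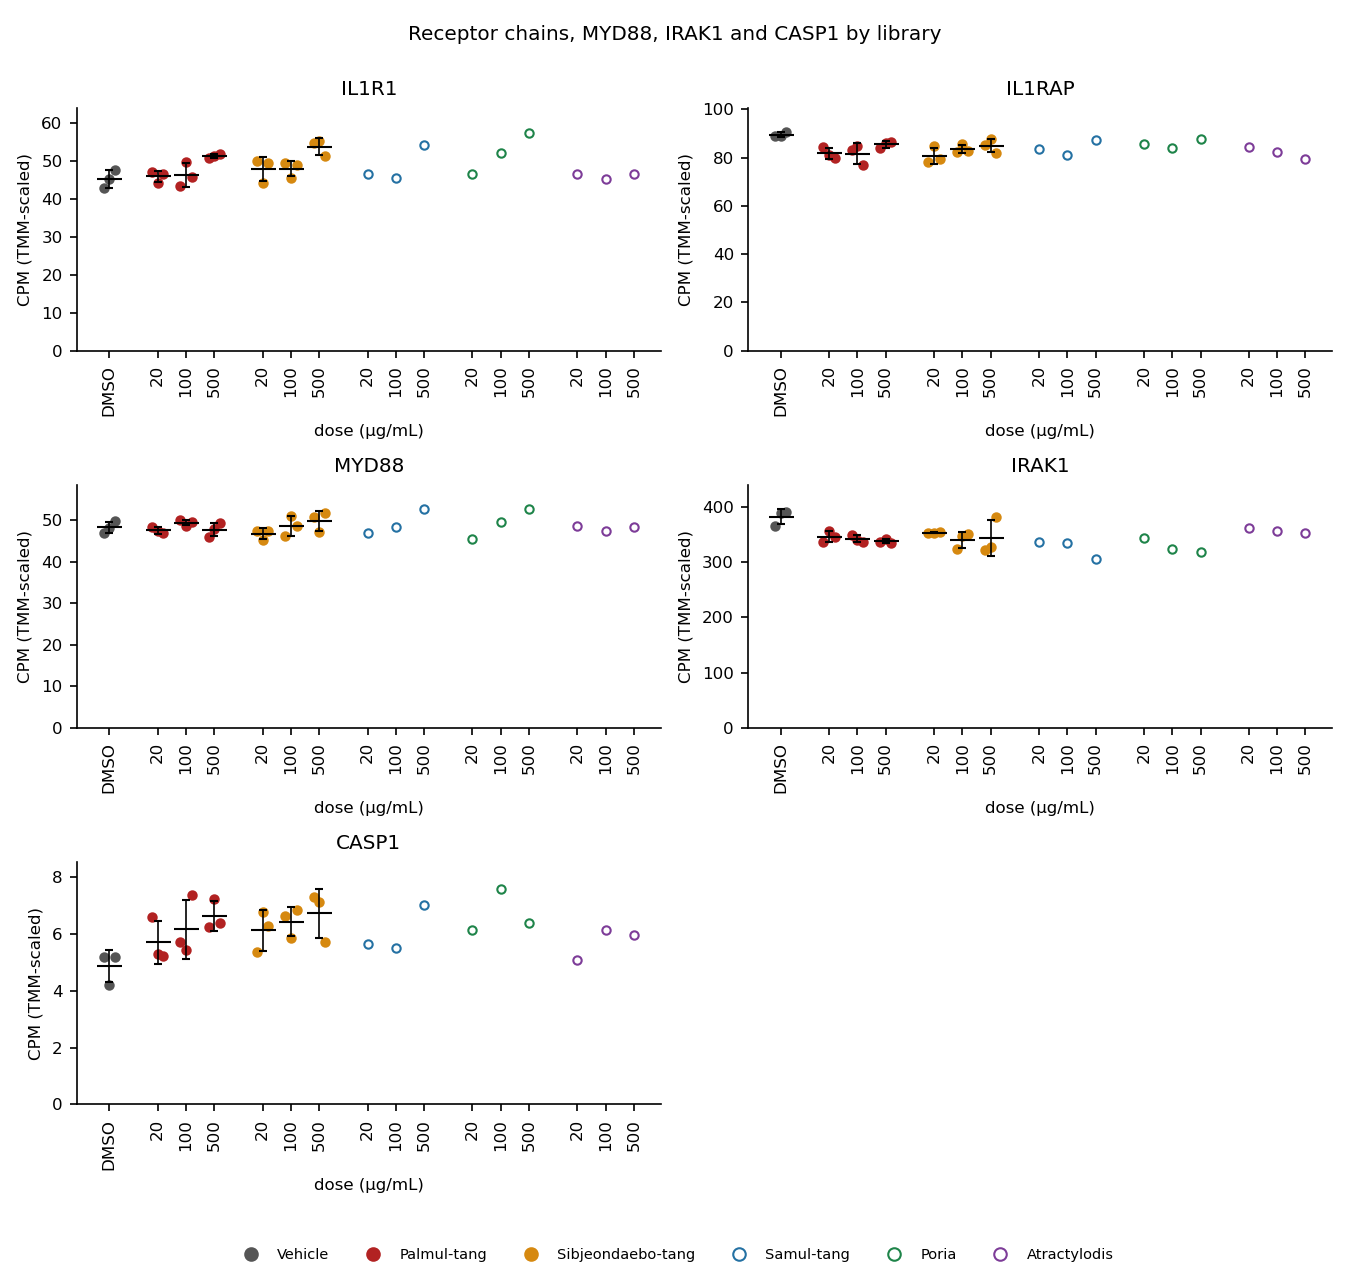
CPM scaled by TMM (vertical axes, from 0) of IL1R1, IL1RAP, MYD88, IRAK1 and CASP1 in each of 30 libraries, by extract and dose in µg/mL. Filled points are libraries of groups with 3, with mean and SD as black bars, and open points are single libraries. IL1RAP stays within 76.9 to 90.7 CPM and MYD88 within 45.2 to 52.8, and vehicle is at the upper end for IL1RAP and IRAK1.

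Against vehicle at 500 µg/mL, IL1B had a log2 fold change of 1.57 with Palmul-tang and 1.64 with Sibjeondaebo-tang, and IL1A 1.29 and 1.27. Without replicate 3 the Sibjeondaebo-tang values were 1.59 and 1.3. These are descriptions with no test, like those between doses. The comparisons of both doses and both formulas with vehicle share the same 3 vehicle libraries.

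Libraries at 100 µg/mL were not in the comparison that chose IL1B, and here the difference from vehicle was tested. With Palmul-tang IL1B rose 1.67-fold (95% interval 1.42 to 1.96), or 0.74 ± 0.115 (SE) on the log2 scale (adjusted p = 1.32e-05 in edgeR's quasi-likelihood test). All 3 libraries were above the 3 of vehicle. With Sibjeondaebo-tang it rose 1.56-fold (1.33 to 1.84), a log2 fold change of 0.64 ± 0.115 (adjusted p = 6.98e-05, edgeR), again with no overlap. IL1A rose 1.46-fold with Palmul-tang (adjusted p = 0.0428, edgeR). That call was lost in 7 of the 10 alternatives that gave IL1A an adjusted p, which ran from 0.0163 to 0.156. The other genes had 11 alternatives. The log2 fold change of IL1A with Sibjeondaebo-tang was 0.42 (adjusted p = 0.126). IL33, the third ligand, had log2 fold changes of 0.06 and -0.08, with adjusted p of 0.672 and 0.566.

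At 100 µg/mL the kinases were lower than in vehicle. IRAK1 fell by 0.16 on the log2 scale with either formula (edgeR, adjusted p = 0.0084 for Palmul-tang and 0.00628 for Sibjeondaebo-tang), and all 6 libraries were below the 3 of vehicle. This was not particular to 100 µg/mL. Mean IRAK1 at 20, 100 and 500 µg/mL was 347, 343 and 339 CPM with Palmul-tang and 354, 341 and 344 with Sibjeondaebo-tang, beside 383 in vehicle. IRAK2 fell by 0.21 with Palmul-tang (adjusted p = 0.0088, edgeR) and by 0.23 with Sibjeondaebo-tang (adjusted p = 0.00412, edgeR). The Palmul-tang call of IRAK2 was lost without vehicle replicate 1 (adjusted p = 0.0598) or Palmul-tang 100 replicate 3 (0.0687). IL1RAP fell by 0.13 with Palmul-tang (adjusted p = 0.015, edgeR), but not without vehicle replicate 3 (0.0662) or Palmul-tang 100 replicate 3 (0.142), and stood at -0.10 with Sibjeondaebo-tang (adjusted p = 0.0635, called with only the compared libraries at 0.0394). CASP1 rose 1.31-fold with Sibjeondaebo-tang (adjusted p = 0.0226, edgeR), a call lost without vehicle replicate 2 (0.124), Sibjeondaebo-tang 100 replicate 1 (0.0617) or replicate 3 (0.0894), and its log2 fold change with Palmul-tang was 0.33 (adjusted p = 0.0672), called with no filter (0.0291), with only the compared libraries (0.0369) and without Palmul-tang 100 replicate 2 (0.0415). In all, 5 of 9 genes passed with Palmul-tang, where 23.0% of all tested genes did, and 4 of 9 with Sibjeondaebo-tang, where 24.6% did. The counts describe 9 genes, and no test of them as a set was made.

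**Figure D3:**
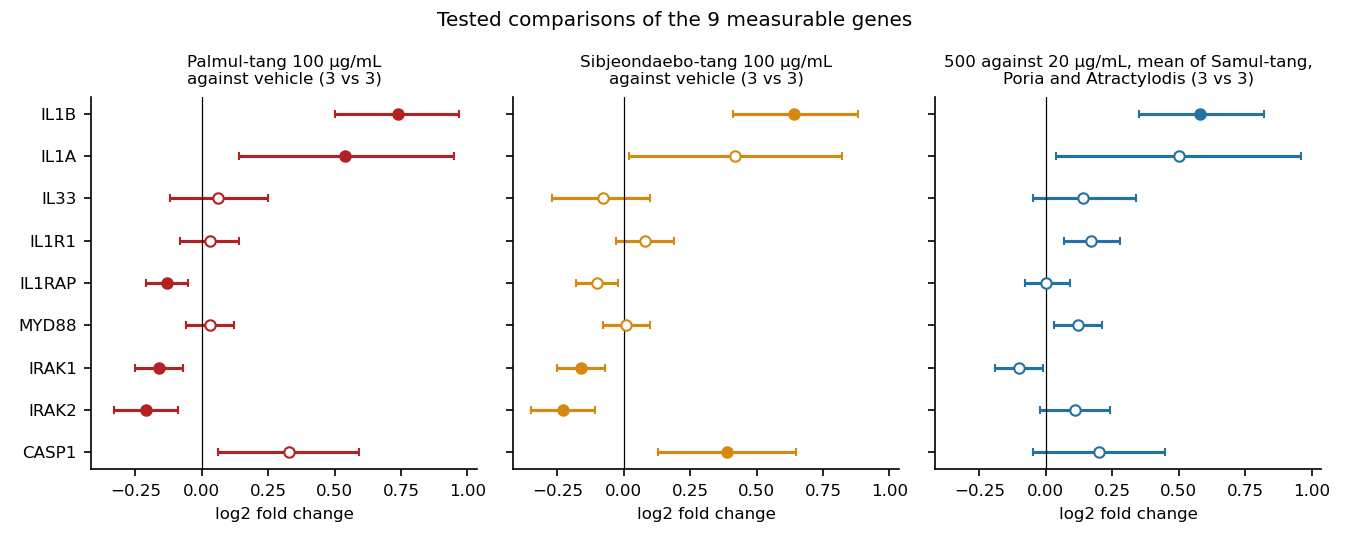
Log2 fold change (horizontal axes) of the 9 measurable genes in 3 tested comparisons: Palmul-tang and Sibjeondaebo-tang at 100 µg/mL against vehicle, and 500 against 20 µg/mL averaged over Samul-tang, Poria and Atractylodis. Bars are 95% intervals from edgeR, and filled points passed an adjusted p of 0.05. IL1B is to the right of 0 in all 3 panels, at 0.74, 0.64 and 0.58.

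The libraries of Samul-tang, Poria and Atractylodis gave a comparison of 500 with 20 µg/mL in samples outside the comparison that chose IL1B. The genes were still listed with earlier results of these data known. Samul-tang, the formula whose herbs Palmul-tang includes, had IL1B at 4.7, 5.86 and 7.57 CPM at 20, 100 and 500 µg/mL. Poria, a fungus that is part of both large formulas, had 4.6, 4.54 and 7.79 CPM. Atractylodis had 4.11, 4.56 and 5.08 CPM. Averaged over the 3 extracts, IL1B was 1.5-fold higher at 500 than at 20 µg/mL (95% interval 1.27 to 1.76), or 0.58 ± 0.116 (SE) on the log2 scale (adjusted p = 0.00189, edgeR), and it was higher in 3 of 3 extracts. It was the 1 gene called of 9, where 2.79% of all tested genes were called. The call was lost without the Samul-tang library at 500 or 20 µg/mL (adjusted p = 0.0601 and 0.0597) and without the Poria library at 500 or 20 (0.108 and 0.105). Each extract and dose has 1 library, so the spread is that of the replicated groups.

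In the same comparison IL1R1 differed by 0.17 ± 0.052 on the log2 scale (adjusted p = 0.0654, edgeR) and MYD88 0.12 ± 0.045 (adjusted p = 0.154). Both passed without an Atractylodis library: IL1R1 at an adjusted p of 0.0154 without either one, and MYD88 at 0.0488 and 0.0469. Poria showed the steepest IL1R1 series, 46.5, 51.9 and 57.3 CPM at 20, 100 and 500 µg/mL, beside 46.5, 45.3 and 54.0 with Samul-tang and 46.4, 45.1 and 46.4 with Atractylodis. IRAK2 was at 15.0, 16.6 and 16.2 CPM with Samul-tang, 15.9, 17.1 and 16.5 with Poria and 14.8, 15.5 and 16.5 with Atractylodis, all below every vehicle library. IL1A was at 0.941, 0.922 and 1.66 CPM with Samul-tang, 0.879, 0.749 and 0.812 with Poria and 0.435, 0.936 and 0.757 with Atractylodis, so of these 9 libraries 1, Samul-tang at 500, exceeded vehicle. IL33 was between 7.67 and 10.4 CPM in these 9 libraries.

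Against vehicle, the mean of 3 doses was tested for each of these extracts. IRAK2 fell by 0.47 on the log2 scale with Samul-tang, by 0.42 with Poria and by 0.51 with Atractylodis (edgeR, adjusted p = 4.54e-07, 2.38e-06 and 1.12e-07). IRAK1 fell by 0.23 with Samul-tang and by 0.22 with Poria (adjusted p = 0.00019 and 0.00042, edgeR). With Atractylodis the log2 fold change of IRAK1 was -0.10 (edgeR, adjusted p = 0.106, called with only the compared libraries at 0.034), and its libraries did not overlap those of vehicle. IL1B rose 1.33-fold with Samul-tang (adjusted p = 0.0102, edgeR), a call lost without vehicle replicate 2 (0.066) or the library at 500 µg/mL (0.24). Its log2 fold change was 0.29 with Poria (adjusted p = 0.0763, called without Poria 100 at 0.0174 or Poria 20 at 0.0228) and 0.03 with Atractylodis (adjusted p = 0.893, 95% interval -0.22 to 0.28). With Poria IL1R1 rose 1.14-fold (adjusted p = 0.00519, edgeR) and CASP1 1.36-fold (0.00776). The IL1R1 call was lost without vehicle replicate 1 (0.0558) or Poria 500 (0.15), and the CASP1 call without vehicle replicate 2 (0.0547) or Poria 100 (0.0688). With Atractylodis IL33 fell by 0.34 (adjusted p = 0.00594, edgeR) and IL1RAP by 0.13 (0.0156, lost without vehicle replicate 3 at 0.0708 or Atractylodis 500 at 0.0905). That makes 3 of 9 genes with Samul-tang, 4 of 9 with Poria and 3 of 9 with Atractylodis, beside 27.7%, 27.3% and 27.7% of all tested genes.

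Both formulas were compared with each other at each dose. Sibjeondaebo-tang holds the herbs of Palmul-tang and further ones. At 500 µg/mL the log2 difference of Sibjeondaebo-tang over Palmul-tang was 0.07 for IL1B (95% interval -0.10 to 0.25), -0.02 for IL1A (-0.33 to 0.30), -0.09 for IL33 (-0.26 to 0.08) and 0.08 for IRAK2 (-0.03 to 0.20). Without Sibjeondaebo-tang 500 replicate 3 the difference was 0.02 for IL1B, 0.01 for IL1A, -0.04 for IL33 and 0.07 for IRAK2. At 100 µg/mL it was -0.09 for IL1B (-0.30 to 0.12) and at 20 µg/mL -0.05 (-0.29 to 0.18). IL1A at 20 µg/mL had the widest difference, 0.51 ± 0.206 (SE; 0.09 to 0.93), and its libraries did not overlap, but its adjusted p in edgeR was 0.999. At each of the 3 doses 0 of 9 genes were called by edgeR or DESeq2, and 0% of all tested genes by edgeR. At an unadjusted p under 0.05 there was 1 gene of the 9 at 20 µg/mL, IL1A, and 0 at 100 and 500. Over all genes 863, 478 and 629 had an unadjusted p under 0.05 at 500, 100 and 20 µg/mL, and DESeq2 called 2, 0 and 0. The change from 20 to 500 µg/mL itself differed between the formulas by -0.53 ± 0.258 (SE) for IL1A, smaller in Sibjeondaebo-tang (unadjusted p = 0.0472, adjusted p = 1, edgeR), and by 0.12 ± 0.145 for IL1B.

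Other genes of the pathway were tested between 500 and 20 µg/mL, where edgeR called 5.30% of all tested genes with Palmul-tang (2.83% higher) and 6.24% with Sibjeondaebo-tang (3.45% higher). Of 8 other ligands and antagonists 2 could be tested. IL18, which caspase 1 also cuts, fell by 1.22 on the log2 scale with Palmul-tang (adjusted p = 0.0294, edgeR) at very low levels, 0.189 to 0.857 CPM over all libraries, and had -0.28 with Sibjeondaebo-tang (adjusted p = 0.757). Of 8 other receptors 5 were tested and 1 rose with each formula. That was IL1RL1, the receptor of IL33, from 41.8 ± 0.513 to 58.6 ± 1.87 CPM (SD, n = 3) with Palmul-tang and from 41.8 ± 1.3 to 59.1 ± 2.72 with Sibjeondaebo-tang, with log2 fold changes of 0.49 and 0.50 (edgeR, adjusted p = 4.57e-10 and 1.43e-10), and 0.51 for the latter without replicate 3. IL1RL1 also rose at 100 µg/mL against vehicle, by 0.24 and 0.20 (adjusted p = 0.000203 and 0.00131, edgeR). The decoy receptor IL1R2 was too low to test, with at most 2 counts in any library.

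Of 18 further genes close to the receptor 17 were tested. With Palmul-tang 0 rose and 0 fell, and with Sibjeondaebo-tang 1 rose, IRAK4, the first kinase of the chain, by 0.21 ± 0.054 (adjusted p = 0.0114, edgeR), and by 0.25 without Sibjeondaebo-tang 500 replicate 3, where 2 genes of this list rose, IRAK4 and TAB3, and 2 fell, TOLLIP and PELI3. These counts of 0 and 1 are near or under the shares called over all genes, and so are those of the next list. For the fit without that replicate the share over all genes is not given here. Its counts of 2 and 2 can therefore not be set against a share. IRAK3, an inhibitory member of the kinase family, was too low to test, with at most 4 counts in any library. Of 18 genes of the inflammasome and of cytokine processing 13 were tested. NLRP1, an inflammasome sensor, fell by 0.42 with Palmul-tang (adjusted p = 0.0145, edgeR), and with Sibjeondaebo-tang 0 were called. NLRP3, another sensor, was at 0.156 to 0.466 CPM and PYCARD, the adaptor between sensor and caspase 1, at 0.282 to 1.06 CPM.

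Of 17 genes that interleukin 1 is known to raise, all tested, 16 rose, 0 fell and 1, the matrix protease MMP3, was not called, with each formula, where 2.83% and 3.45% of all tested genes rose. Without Sibjeondaebo-tang 500 replicate 3 the count was again 16. Their median log2 fold change was 1.21 with Palmul-tang and 1.3 with Sibjeondaebo-tang, beside -0.001 and 0.001 over all tested genes. ICAM1, an adhesion molecule, rose by 1.27 ± 0.044 and 1.37 ± 0.044 (edgeR, adjusted p = 2.1e-21 and 1.46e-22). LIF, a cytokine of the interleukin 6 family, rose by 1.22 and 1.45, BIRC3, an inhibitor of cell death, by 1.16 and 1.06, and PTGS2, which makes prostaglandins, by 0.86 and 0.95. Many of these genes are raised by other inflammatory signals as well. The high levels of cytokine genes at 500 µg/mL were known when the list was written. So neither the count nor the p-values of these genes between these doses are independent evidence. Over these comparisons the macrophage and microglia list summed to 169 to 184 CPM at 500 µg/mL of Palmul-tang and 160 to 174 at 20, and to 170 to 184 and 165 to 180 with Sibjeondaebo-tang, with 0 of 4 tested genes called in either. Of 5 tested astrocyte markers 1 fell with Palmul-tang, GLUL by 0.19, and 3 fell with Sibjeondaebo-tang, GLUL and SLC1A3 by 0.22 each and SOX9 by 0.13 (edgeR, adjusted p = 0.00664, 0.0007, 0.0113 and 0.0484). Of all tested genes 5.30% with Palmul-tang and 6.24% with Sibjeondaebo-tang were called in either direction. SOX9 was lost without Sibjeondaebo-tang 500 replicate 3 (adjusted p = 0.0681). The part of these markers in the results was not tested.

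**Figure D4:**
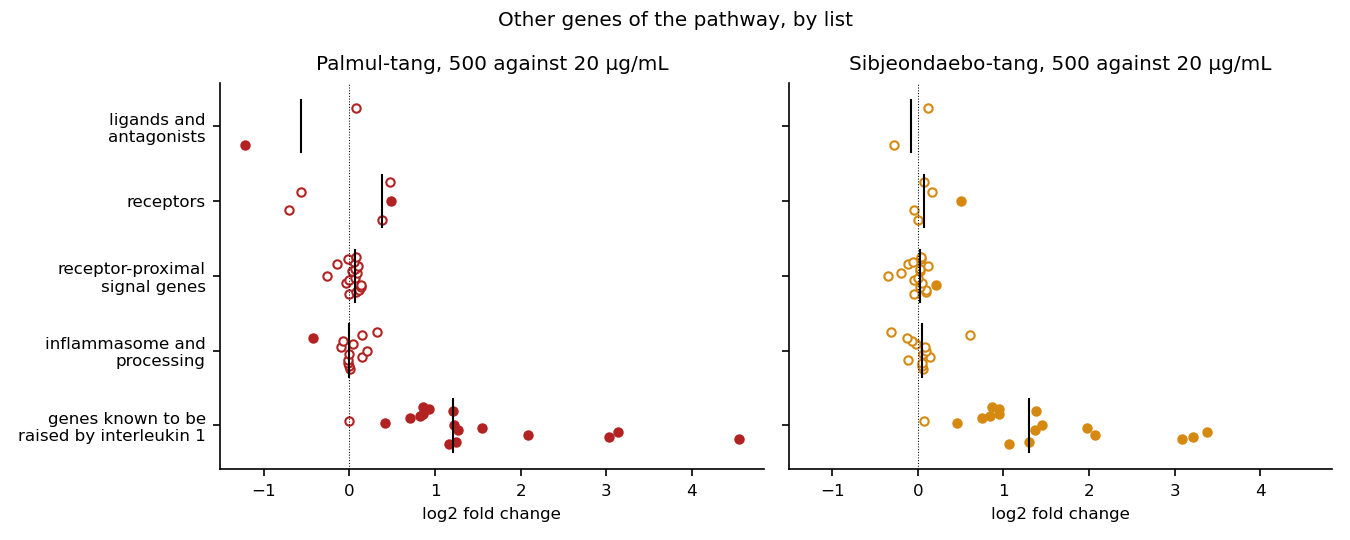
Log2 fold change between 500 and 20 µg/mL (horizontal axes, the same scale) of the tested genes of 5 lists of the pathway other than the 10 genes themselves, for Palmul-tang and Sibjeondaebo-tang. Each point is a gene, filled where edgeR's adjusted p was under 0.05, and the black bar is the list's median. The list of genes that interleukin 1 is known to raise has medians of 1.21 and 1.3, and the points of the receptor-proximal list lie near 0.

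The same list was also counted in comparisons without these libraries. It was still written with earlier results of these data known, so these counts and p-values are not independent evidence either. At 100 µg/mL against vehicle, 12 of 17 rose and 2 fell with Palmul-tang, and 13 rose and 2 fell with Sibjeondaebo-tang, beside 23.0% and 24.6% of all tested genes called in either direction. The genes that fell were PTGS2, by 0.30 and 0.23, and LIF, by 0.23 and 0.24. Between 500 and 20 µg/mL of Samul-tang, Poria and Atractylodis, 5 rose and 0 fell, beside 2.79% of all tested genes called: CXCL8, a neutrophil chemokine, by 1.3, LIF by 0.80, PTGS2 by 0.48, the collagenase MMP1 by 0.26 and SOD2, the mitochondrial superoxide dismutase, by 0.15 (edgeR, adjusted p = 1.04e-05, 1.79e-10, 2.97e-07, 0.000657 and 0.0479). SIGIRR, an inhibitory receptor of the family, was also higher there, by 0.85 ± 0.222 (adjusted p = 0.0257, edgeR). Its counts in these libraries were low, from 24 with Atractylodis at 20 µg/mL to 49 with Samul-tang at 500. All of these calls rest on 1 library per extract and dose. Over all genes the 498 calls of this comparison were 80 with only the compared libraries. Against vehicle, the mean of 3 doses had 1 gene of the 17 higher and 6 lower with Samul-tang, 2 and 5 with Poria and 1 and 9 with Atractylodis, beside 27.7%, 27.3% and 27.7% of all tested genes called.

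The genes whose log2 CPM followed IL1B most closely over the 30 libraries were ranked among 12682 genes by Pearson's r, as a description, since the libraries share doses and extracts. IL1RL1 was first with an r of 0.955, followed by SERPINB2 (0.948), a plasminogen activator inhibitor, CXCL8 (0.943), IL6 (0.939), the protease ADAMTS1 (0.934), TNFAIP3 (0.931), a brake on NF-kappa B, NFKBIZ (0.929), a nuclear protein that tunes NF-kappa B, and SOD2 (0.928). Within the 10 genes, IRAK2 had an r of 0.778 (rank 152), IL33 0.76 (rank 176), IL1R1 0.616, CASP1 0.521, MYD88 0.289, IL1RAP 0.103 and IRAK1 -0.354. IL1A was below the mean log2 CPM of 1 set for this ranking.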

How the data were processed

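RNA of SW1783 cells was sequenced in 30 libraries after 24 h of treatment. The authors deposited expected counts per gene from RSEM 1.3.3. Before that, FastQC 0.11.9 checked the reads, Trim Galore 0.6.5 trimmed them and STAR 2.7.3a aligned them to hg38, per the submitters' processing notes. The annotation release, the strand used in counting and any filter are not given in the sources used here. Of 279 columns 30 were used and 249 per-sample columns were not. Counts, 24% of whose nonzero values were not whole, were rounded. Counts cover 22.57 M to 37.82 M reads per library, which limits IL1A and IL1RN most.

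CPM were scaled by TMM, and log2 CPM had a prior count of 2. With edgeR 4.0.16 on R 4.3.3, 16 group means were fitted to all libraries (filterByExpr with the groups, robust quasi-likelihood), so single libraries borrow the spread of the others. P-values were adjusted by Benjamini-Hochberg over 17839 genes at 0.05, and intervals are at 95%. The comparisons of doses, of formulas and with vehicle were recomputed with DESeq2 1.42.0, with other settings and without each of their libraries. The ranking by Pearson's r and the difference in dose change between the formulas were not. The fit was also run on counts simulated from its own dispersions, which cannot show that this spread suits these libraries. Positions and exon lengths come from GENCODE release 29 on GRCh38, matched to 57055 of 60675 gene IDs. The 10 genes are all described, and up to 4 called genes of a pathway list were named by smallest p in 500 against 20 µg/mL of either formula. The members and lists were chosen with earlier results of these data known. The genes most like IL1B were named by their rank. MMP3, SIGIRR, the 5 genes called between 500 and 20 µg/mL of the single-library extracts, TAB3, TOLLIP, PELI3, the called astrocyte markers and the genes named as too low were named after their values were seen.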

Additional observations from a re-analysis of the deposited data

How the results depend on the processing

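Leaving out each library in turn, the number of the 9 genes called ran from 3 to 5 for 100 µg/mL of Palmul-tang against vehicle and from 0 to 3 for 500 against 20 µg/mL of Samul-tang, Poria and Atractylodis, which had 2 called with no filter on low counts. Of 1679 values of single genes under all alternatives, 1634 were unchanged, 26 lost their call and 19 gained one. Values of IL1A that had no adjusted p under an alternative of a tested comparison are not among them. In tested comparisons unchanged means the same call. In those described without a test, it means only that the log2 fold change moved by no more than the SD within groups. The lost and gained calls are therefore all from the tested comparisons. No called value changed sign, while 61 of 1144 uncalled ones did, with a log2 fold change of at most 0.15 before. Over all genes, edgeR called 0 between the formulas but 9, 7 and 3 at 500, 100 and 20 µg/mL with no filter, and 1 and 2 without Sibjeondaebo-tang 500 replicate 3 and 100 replicate 1, and DESeq2 called 2 at 500. The 498 genes called between 500 and 20 µg/mL of the 3 single-library extracts were 80 with only the compared libraries, and 189 or 190 without a Samul-tang or Poria library. The 1113 called for Sibjeondaebo-tang 500 against 20 were 636 with only the compared libraries. The replicate numbers did not pair the samples (correlations of same-numbered libraries from -0.206 to 0.186). With a replicate block 5 genes were called for 100 µg/mL of Palmul-tang against vehicle, 5 for Sibjeondaebo-tang, 0 in each comparison of the formulas and 6 for Poria against vehicle. The calls gained were IL1RAP for Sibjeondaebo-tang (edgeR, adjusted p = 0.0414) and IL1B (0.0234) and IL33 (0.025) for Poria. All Poria libraries are replicate 1, so its gained calls rest on replicate numbers that did not pair the samples. For the replicate block, the fit with no filter and most fits without a library, the share over all genes is not given here. Their counts of the 9 genes can therefore not be set against a share. Intervals are widest for IL1A, and IL1RN could not be measured at this depth. Groups with 1 library cannot show their own spread.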
